A study of Caenorhabditis elegans with 4 samples.

Results

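Chromosome II held 22 combined regions of NHR-67 binding, 19.5% of that list, in which the other autosomes had 65 and X had 26. It also held 4819 of 29974 nuclear regions called in ChIP replicate 1 and 2794 of 18754 called in ChIP replicate 2. The members are all rows placed on chromosome II in the 3 deposited region lists, whatever their score. The worms were Caenorhabditis elegans hermaphrodites of strain OP373 at the L3 larval stage, grown at 20 °C. Their genotype is unc119(ed3) with the transgene wgIs373, which carries unc119 and a copy of nhr-67 fused to TY1, EGFP and FLAG tags. The labels name no change to the worm's own nhr-67 and no outcross, and give bombardment as the way the transgene was brought in. Chromatin came from whole larvae and was precipitated through GFP in 2 ChIP samples, while the 2 input samples were not analysed here. No source states that the replicates came from separate cultures, and their differences may be technical.

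NHR-67 is the worm member of the tailless/TLX family of nuclear receptors, which bind DNA and act mainly on development. It is known from the anchor cell of the larval gonad, where it holds the cell out of the division cycle so that it can invade, and from neurons. A whole larva also holds many cells of other kinds. Each worm autosome has a gene-dense centre with little recombination, flanked by arms that recombine more and are richer in repeats.

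All coordinates are 1-based on WormBase build WS220. The span of chromosome II, from the first to the last base of any called region, ran over 15.27 Mb, 71 to 15271884. It was cut into 3 equal segments, which meet at 5.09 and 10.2 Mb, and the other chromosomes were cut in the same way. Every combined region carries the same score, 2.82, and 20 of the 22 on II have the same width of 590 bp, so neither orders them. Replicate regions were therefore ranked by the peak number in their names, which follows the falling score closely, so that a low number is best. For the combined list no source gives the meaning of the numbers, and they serve here as names. Scores stop at a highest value of 2.91 in replicate 1 and 3.53 in replicate 2, reached on II by 54 regions (1.12%) and 252 regions (9.02%). Over all nuclear chromosomes 386 and 1670 regions are tied at those values, up to peak numbers 409 and 1698. The scale of the score is not stated, and values of different lists were not compared. The lists carry no read counts, so sequencing depth is unknown. The genes and the sequence at these regions were not analysed here.

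The combined regions of chromosome II lay in its middle and last segments, and the first segment was nearly empty. The first segment held 2 of 22 regions (9.09%, exact 95% interval 1.12 to 29.2), the middle one 10 (45.5%, 24.4 to 67.8) and the last one 10 (45.5%, 24.4 to 67.8). Over all nuclear chromosomes 37.2% of combined regions were in a middle segment, which lies inside the interval of II. In density the first segment had 0.393 regions per Mb and the others 1.96 each. On the other 4 autosomes together, 26 of 65 regions (40.0%, 28.0 to 52.9) were in the first segment, 24 (36.9%, 25.3 to 49.8) in the middle and 15 (23.1%, 13.5 to 35.2) in the last. Taken singly, the first-segment shares were 47.1% on I, 39.3% on III, 57.1% on IV and 23.1% on V, so that II had the lowest of the 5. On X the first segment held 9 of 26 (34.6%, 17.2 to 55.7). With the chromosome as the unit, 1 against 4 cannot give a two-sided exact permutation p below 0.2, and no test is given.

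**Figure D1:**
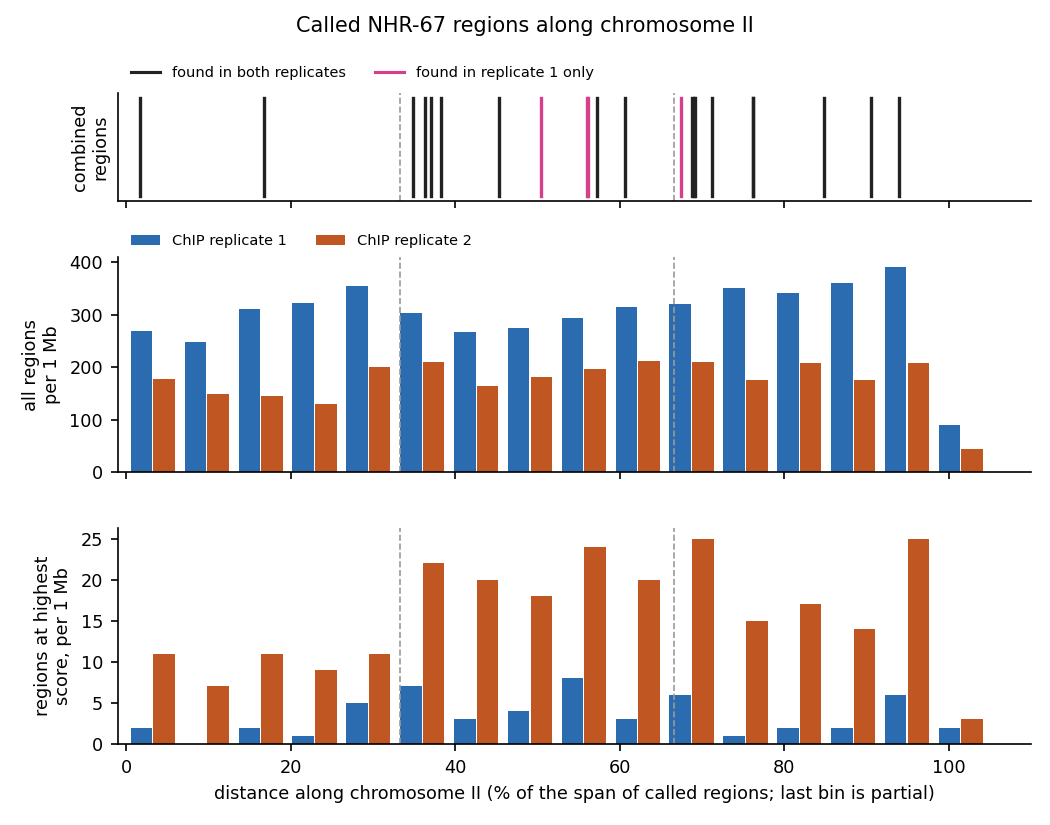
Called regions along chromosome II, as percent of the span on the x axis, with dashed lines where the 3 segments meet. Top, the 22 combined regions, of which 4 have no counterpart in replicate 2. Middle and bottom, counts per 1 Mb of all regions and of those at the highest score, by replicate. In replicate 2 the first 5 steps hold 7 to 11 top-scoring regions and the next 6 hold 18 to 25.

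The low share of the first segment was also seen among the best regions of each replicate taken alone. The combined list comes from the same samples, so these lists are no separate support. The segment was singled out after its values were seen. Of the 151 regions of II among the 1000 best nuclear regions of replicate 1, 30 were in the first segment (19.9%, exact 95% interval 13.8 to 27.1), against 28.3% to 34.5% on the other autosomes. Of the 157 in replicate 2, 25 were (15.9%, 10.6 to 22.6), against 24.7% to 32.1%. Both values were the lowest of the 5 autosomes. The densities, 5.89 and 4.91 per Mb, were also the lowest of the 15 autosomal segments, where the median was 10.4 and 8.94. This did not extend to the combined list, in which the last and the middle segment of IV had fewer regions per Mb than the first of II (0.172 and 0.344 against 0.393).

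In the full lists the first segment differed less. It held 1532 of the 4819 regions of replicate 1 (31.8%, 30.5 to 33.1) and 825 of the 2794 of replicate 2 (29.5%, 27.8 to 31.3). These too were the lowest shares of the 5 autosomes, and the nearest were 33.5% and 32.2%. Per Mb, its 301 regions of replicate 1 stood at place 7 of 15 from the lowest, and its 162 of replicate 2 at place 3. The share of its regions that reached a top score was low in both lists. In replicate 1 11 did (0.718%, 0.359 to 1.28), against 1.62% in the middle and 1.05% in the last segment. In replicate 2 50 did (6.06%, 4.53 to 7.91), against 10.7% and 9.79%. Both shares were the lowest of the 15 autosomal segments.

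**Figure D2:**
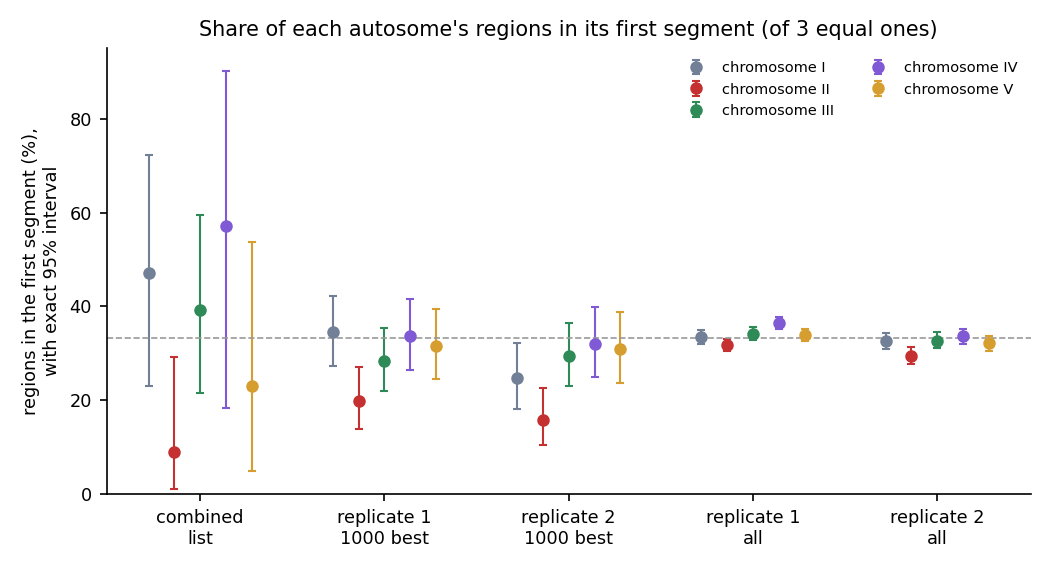
Share of each autosome's regions that lie in the first of its 3 equal segments, in percent with exact 95% intervals that cover counting error only, for the combined list, the 1000 best and all regions of each replicate. The dashed line marks an even spread. Chromosome II is lowest in each of the 5 lists, at 9.09%, 19.9%, 15.9%, 31.8% and 29.5%.

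By 1 Mb steps, the 5 steps from 0 to 5 Mb held 2, 0, 2, 1 and 5 top-scoring regions of replicate 1, and 11, 7, 11, 9 and 11 of replicate 2. The next 6 steps, from 5 to 11 Mb, held 3 to 8 and 18 to 25. From 11 to 14 Mb the counts were lower again, at 1 or 2 in replicate 1 and 14 to 17 in replicate 2. The step from 14 to 15 Mb was high once more, with 6 and 25. The count of all regions had another course. In replicate 1 it ran from 249 between 1 and 2 Mb up to 391 between 14 and 15 Mb, and in replicate 2 from 131 between 3 and 4 Mb up to 212 between 9 and 10 Mb, leaving out the partial last step.

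The combined regions of the first segment were 51 and 107. Region 51, at chrII:255062-255651, was number 153 in replicate 1 and 167 in replicate 2, with the highest score in both. Region 107, at chrII:2570581-2571170, has the highest combined number on II. Replicate 1 gave it number 84, while replicate 2 put it at number 9670 with a score of 0.917. Of these regions, only 51 ranked high in both replicates. Empty stretches of 2.31 Mb and 2.77 Mb followed, between region 51 and region 107 and from there to region 88. They were the longest on II, and the longest on I, IV and V were longer still, at 4.32, 5.60 and 4.81 Mb.

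The middle segment began with 4 regions between 5 and 6 Mb, a count that among the 1 Mb steps of II was exceeded only between 10 and 11 Mb, with 5. Region 88, at chrII:5336781-5337370, was number 497 in replicate 1 (score 2.04) and 55 in replicate 2. Region 30, at chrII:5543430-5544019, was number 22 and 1564, and region 83, at chrII:5661530-5662119, number 111 and 59. Region 65, at chrII:5844759-5845348, was number 703 in replicate 1 (score 1.83) and 34 in replicate 2, the best number of any region of II in that list. Regions 30 and 83 had the highest score in both replicates, and regions 88 and 65 in replicate 2 alone. In region 30, number 22 of replicate 1 met number 2396 of replicate 2 (score 2.57), and its overlap with number 1564 was smaller.

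Further along the middle segment, replicate 1 gave the lower number each time. The replicate lists differ in length and in ties at the highest score, so their numbers are not on a common scale. Region 69, at chrII:6926173-6926762, was number 99 and 1159, with the highest score in both. Region 68, at chrII:8745854-8746443, was number 54 in replicate 1 and 3666 in replicate 2, where it scored 2.25. Region 85, at chrII:9274078-9274667, was number 155 and 512, again at both highest scores. The remaining regions of this segment, 106, 90 and 43, had no counterpart in replicate 2 at all.

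Of the 22 combined regions, 22 were found in replicate 1 and 18 in replicate 2, where found means an overlap of at least 50% of the shorter region. The share found in both was 81.8% (exact 95% interval 59.7 to 94.8), against 92.9% of combined regions on all nuclear chromosomes. The combined list and the replicate lists come from the same samples, so this describes the list and tests nothing. On the other autosomes 61 of 65 were found in both (93.8%, 85.0 to 98.3), with 17 of 17 on I, 27 of 28 on III, 7 of 7 on IV and 10 of 13 on V. The value of II lay between those of V (76.9%) and III (96.4%), and the intervals of II and of the other autosomes overlap.

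The 4 without a counterpart had good numbers in replicate 1, all at its highest score. Region 43, at chrII:8577393-8577642, was number 40 there, and its 185 bp replicate 1 region is the sole one on II that is not 404 bp wide. Region 106, at chrII:7708427-7709016, was number 48. Regions 90, at chrII:8561078-8561667, and 75, at chrII:10303591-10304180, were numbers 103 and 105. The nearest regions of replicate 2 touched none of them. They lay 750 bp away from region 106 (score 1.81), 912 bp from region 75 (1.06), 3900 bp from region 43 (1.25) and 4268 bp from region 90 (0.380). The midpoints of regions 90 and 43 stand 16.1 kb apart, so 2 of the 4 are near neighbours.

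In the last segment, regions 7, 47 and 52 ranked high in both replicates. Region 7, at chrII:10563412-10563622, has the lowest combined number on II, the next being 30. It was number 14 in replicate 1, the best of II, and 172 in replicate 2. Region 47, at chrII:14349367-14349956, was number 185 and 87, and region 52, at chrII:12944420-12945009, number 192 and 137. All 3 had the highest score in both replicates. Region 89, at chrII:10868599-10869188, was number 223 in replicate 1 and 4133 in replicate 2 (score 2.05).

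The other regions of the last segment with a counterpart in both lists had the lower number in replicate 2, though the numbers share no common scale. Region 49, at chrII:10543247-10543836, was number 1643 in replicate 1 (score 1.26) and 36 in replicate 2. Region 103, at chrII:10502577-10503166, was number 2786 (score 0.940) and 57, the widest step toward a lower number in replicate 2 on II. Region 67, at chrII:13834112-13834701, was number 660 (score 1.89) and 66. The closest pair on II had midpoints 3.20 kb apart. Its members were region 74, at chrII:11634046-11634635, with numbers 737 and 430, and region 95, at chrII:11637244-11637833, with numbers 688 and 39. Both had the highest score in replicate 2 and not in replicate 1 (1.81 and 1.86). Between them replicate 2 had another region at its highest score, number 79, at chrII:11635923-11636402, which met number 6560 of replicate 1 and no combined region. In region 95, number 39 of replicate 2 overlapped no region of replicate 1, number 688 included, by the share that counts as found. Region 95 also met number 17349 of replicate 2, with a score of 0.394.

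**Figure D3:**
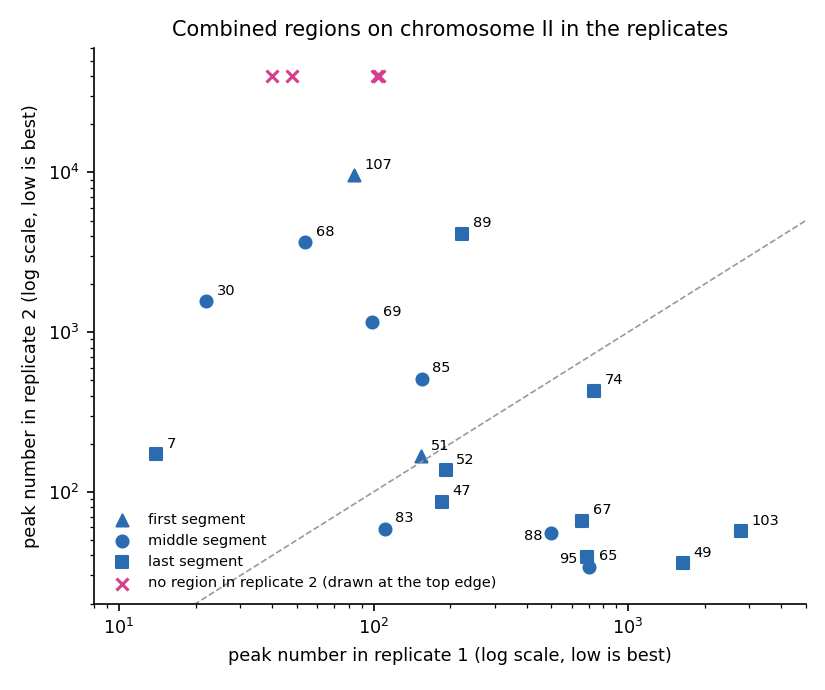
Peak number of the 22 combined regions of chromosome II in replicate 1 (x) and replicate 2 (y), both on log scales where a low number is best. Points carry the combined number, marker shapes give the segment, crosses at the top edge are the 4 regions with no counterpart in replicate 2, and the dashed line marks equal numbers. Of the regions drawn as points, 5 have numbers under 200 in both lists. For regions 30 and 95 the numbers come from replicate regions that overlap each other too little to count as a match.

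The replicates thus ranked the combined regions of II in unlike ways. The highest score was reached in both replicates by 8 regions (36.4%, exact 95% interval 17.2 to 59.3), in replicate 1 alone by 7 and in replicate 2 alone by 7. On the other autosomes 41 of 65 regions reached both (63.1%, 50.2 to 74.7). They ran from 38.5% on V (13.9 to 68.4), 60.7% on III and 70.6% on I to 100% on IV. On X 23 of 26 did (88.5%). II had the lowest share of the 5 autosomes, close to that of V, and its interval overlaps that of the other autosomes. Spearman's rho between the peak numbers was -0.666 over the 18 regions of II found in both lists, and 0.0439 over the 61 of the other autosomes. Both are descriptions, since membership of the combined list was not independent of these ranks and low numbers order regions with tied scores. For regions 30 and 95 of II, the numbers used come from replicate regions that do not overlap each other by 50% of the shorter one. Region 30 is among the 8 regions at both highest scores.

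Between the combined regions and the replicate regions they met, midpoints stood at a median distance of 24.5 bp in replicate 1 and 65.25 bp in replicate 2. The farthest were 207 bp (region 95) and 293 bp (region 30). The overlap needed to count as found keeps these distances short by itself. The 4 regions with no counterpart in replicate 2 have no distance there.

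Region density was counted in windows of 25 kb, 611 of them on II, with a median of 8 regions of replicate 1 and 4 of replicate 2. A window was called dense when its count was at or above the 99th percentile of all nuclear windows in each replicate, which came to 16 regions in replicate 1 and 12 in replicate 2. Chromosome II had 2 dense windows (0.327%) against 8 of 4011 on all nuclear chromosomes (0.199%). The other autosomes had 2 on I, 1 on III, 2 on IV and 1 on V. A further 7 windows of II reached the count in replicate 1 alone and 1 in replicate 2 alone, and none of these 8 held a combined region. The counts of both replicates over the windows had Spearman's rho 0.379 on II, and 0.298 to 0.314 on the other autosomes. A window has the same base composition and mappability in both replicates, and the part of these in the rho was not tested. The rho describes where regions were called.

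The densest window of II was chrII:10525001-10550000, in the last segment. It held 19 regions of replicate 1 and 17 of replicate 2, the most of any window of II in each list. Merged, they covered 7.05 kb (28.2%) and 7.32 kb (29.3%) of it. Of the 17 in replicate 2, 7 had the highest score. Of the 19 in replicate 1, 1 did, number 286 at chrII:10541980-10542383, which does not touch a combined region. Combined region 49 lay inside the window, 6.04 kb from its centre. By midpoint, region 103 lay 22.1 kb before its start and region 7 lay 13.5 kb after its end. Thus 3 of 22 combined regions (13.6%, exact 95% interval 2.91 to 34.9) were in or within 25 kb of a dense window, all at this locus, against 4.42% over all nuclear chromosomes. On the other autosomes there was 1 on III, 1 on V, and 0 of 17 on I and 0 of 7 on IV. The share over all nuclear chromosomes includes the 3 regions of II. Dense windows and combined regions come from the same samples, so this describes the lists and tests nothing. The interval takes the 3 as independent, although they stand at 1 locus.

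The cluster ran on past the edge of the window. The 75 kb of chrII:10500001-10575000 held 45 regions of replicate 1 and 32 of replicate 2, or 15.0 and 10.7 per 25 kb. The windows before and after the densest one both had 13 regions of replicate 1, and 7 and 8 of replicate 2. Beyond these the counts fell to 6 and 9 in replicate 1 and to 3 and 5 in replicate 2. Many regions of the stretch were shared, which here means an overlap of at least 50% of the shorter region between replicates. It was so for 16 of 45 in replicate 1 (35.6%) and 17 of 32 in replicate 2 (53.1%), while over all nuclear chromosomes 13.0% of replicate 1 regions and 20.7% of replicate 2 regions were shared. The stretch also holds more regions to meet, and the part of this density in the sharing was not tested. Median scores in the densest window were 0.289 in replicate 1 and 2.68 in replicate 2, beside 0.225 and 0.971 over all of II.

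**Figure D4:**
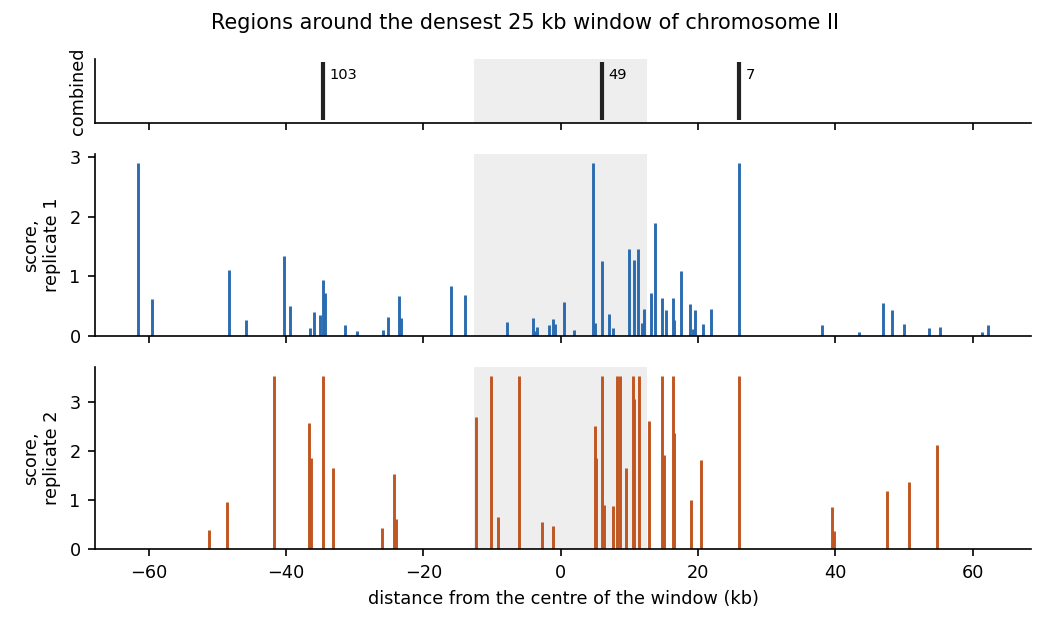
Regions around the densest 25 kb window of chromosome II (grey), by distance from its centre in kb. Top, combined regions with their numbers. Middle and bottom, each region of replicate 1 and replicate 2 as a line as high as its score, on each list's own scale. The combined regions 103, 49 and 7 stand at -34.6, 6.04 and 26.0 kb, and of the 32 replicate 2 regions in the 75 kb around the centre 11 reach the highest score.

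The other dense window, chrII:1225001-1250000, lies in the first segment and held 16 and 12 regions. No combined region was in or near it, the nearest being 970 kb away. Its best regions were number 832 in replicate 1 (score 1.76, below the highest) and 1143 in replicate 2, which had the highest score. It shared 3 of 16 and 3 of 12 regions, against 7 of 19 and 7 of 17 in the densest window. Its median scores were 0.642 in replicate 1, above the 0.289 of the densest window, and 2.18 in replicate 2, below the 2.68 there.

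The sharing of regions between replicates was then followed by rank. Of all replicate 1 regions of II, 626 of 4819 were shared (13.0%, exact 95% interval 12.1 to 14.0), and of replicate 2 regions 624 of 2794 were (22.3%, 20.8 to 23.9), near the 13.0% and 20.7% of all nuclear chromosomes. Both values of II lay within the range of the other autosomes, 10.9% to 14.8% and 18.2% to 23.6%. Within II sharing was lowest in the first segment. In replicate 1 it was 9.60% there (8.17 to 11.2), 14.9% in the middle and 14.3% in the last segment. In replicate 2 it was 17.5% (14.9 to 20.2), 22.9% and 25.8%. The first segment of V had about as little, 10.2% and 17.3%.

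Sharing was most common among the best-numbered regions, on II and on each other autosome. Of the 50 best regions of II in replicate 1, 24 (48.0%, 33.7 to 62.6) met a region of replicate 2, of the next 150 31 did (20.7%), and of those past the first 2000 324 of 2819 (11.5%). In replicate 2 the same steps gave 58.0% (43.2 to 71.8), 34.0% and 19.1%. Among the 50 best, the other autosomes ran from 38.0% to 58.0% in replicate 1 and from 36.0% to 56.0% in replicate 2. Shared regions of II had somewhat higher scores than unshared ones, with medians of 0.269 against 0.221 in replicate 1 and 1.10 against 0.939 in replicate 2. Across the 585 one-to-one pairs of II the replicate scores had Spearman's rho 0.168, and 0.0536 over the 485 pairs with neither score at its highest value, which is weak and is given as a description.

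**Figure D5:**
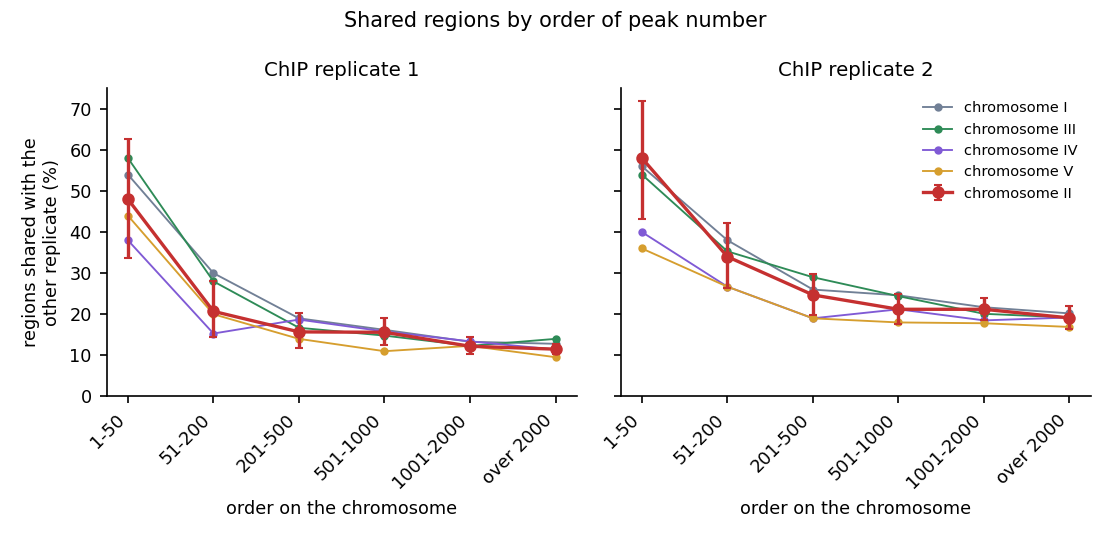
Share of regions that meet a region of the other replicate's full list, in percent, by order of peak number within the chromosome, for replicate 1 (left) and replicate 2 (right). Chromosome II has exact 95% intervals. It starts at 48.0% and 58.0% among the 50 best and ends at 11.5% and 19.1% past the first 2000.

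When the best regions of both lists were matched with each other, chromosome II had no shared site at the very top. None of the 5 regions of II among the 50 best nuclear regions of replicate 1 was shared with the 9 of II among the 50 best of replicate 2, which allows a share of up to 52.2% by the exact interval. The other autosomes together had 6 of 26, V had 0 of 3 and X had 14 of 19. Over all nuclear chromosomes it was 20 of 50 (40.0%). Among the 400 best, 6 of 55 regions of replicate 1 were shared (10.9%, 4.11 to 22.2), against 10.9% to 16.9% on the other autosomes. From the side of replicate 2 it was 6 of 70 (8.57%, 3.21 to 17.7), against 10.7% to 16.9%. II was thus lowest of the autosomes, or level with IV, at this size. Over all nuclear chromosomes the shares were 17.0% and 17.2%, with X at 32.9% and 32.5%. Among the 1000 best, 20 of 151 regions of replicate 1 were (13.2%, 8.28 to 19.7), against 11.5% of the 1000 best on all nuclear chromosomes. The other autosomes ran from 7.50% on IV to 11.5% on I, so II was the highest of the 5 at this size, with an interval that holds the others' values except that of IV. At the 2000 best it was again the highest of the 5, with 10.0% (6.90 to 13.9) against 5.47% to 9.70%. All nuclear chromosomes had 8.75% there. The place of II among the autosomes therefore changed with the number of regions taken. At the 5000 and 10000 best the shares of II were 8.89% and 10.5%, inside the range of the other autosomes. Over all nuclear chromosomes they were 8.90% and 10.2%. In replicate 2 the 1000 best are all tied at the highest score, so the peak number alone picks them.

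The 20 sites of II shared by the 1000 best lay 2, 9 and 9 in the first, middle and last segment. They met 10 combined regions, and 10 sites met none. At the 400 best the 6 shared sites were 5 combined regions (83, 51, 7, 47 and 52) and 1 site outside the combined list. That site was number 100 in replicate 1, at chrII:15025666-15026069, and number 106 in replicate 2, at chrII:15025675-15026154, with the highest score in both and midpoints 47.0 bp apart. By the worse of its numbers it came first among the shared sites of chromosome II, ahead of region 83 with 111. All 6 sites have the highest score in both replicates, so no score orders them. Another 4 of the 20 sites had the highest score in both replicates and met no combined region. They began in replicate 1 at 8131338 (numbers 331 and 610), 4999128 (297 and 675), 8420910 (361 and 760) and 5701406 (230 and 868). These 4 were singled out after their values were seen.

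Some shared sites stood together. Sites that began at 5353676 (numbers 513 and 247) and 5358193 (664 and 778) were 4.52 kb apart, and the first lay 16.8 kb from the site of combined region 88. The single replicate 1 region at chrII:14018013-14018416, number 963, met both of 2 replicate 2 regions, numbers 259 and 295. The site at 4999128 and region 51 were the 2 shared sites of the first segment, and the former lies near the edge of the middle one.

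Each replicate's top set was taken as its best nuclear regions, as many as the combined list holds. Chromosome II supplied 15 regions to that of replicate 1 and 22 to that of replicate 2, of which 2 were shared with each other. Of the 15, 10 were in the combined list (66.7%, 38.4 to 88.2), against 45.5% to 56.0% on the other autosomes. Of the 22, 9 were (40.9%, 20.7 to 63.6), against 21.4% to 50.0%. The best regions of II left out of the combined list were number 79 of replicate 1, at chrII:4506490-4506893, which met nothing in replicate 2, and number 67 of replicate 2, at chrII:6347930-6348409, which met number 5712 of replicate 1. The top sets also differed in place, but larger sets did so less. Of the 22 regions of replicate 2, 14 lay in the last segment (63.6%, 40.7 to 82.8) and 6 in the middle. Of the 15 of replicate 1, 4 lay in the last segment (26.7%, 7.79 to 55.1) and 9 in the middle (60.0%, 32.3 to 83.7). In both top sets the first segment held 2 regions. Among the 1000 best, the last segment held 43.0% in replicate 1 and 42.7% in replicate 2, and the middle one 37.1% and 41.4%. Both top sets are cut by peak number alone from regions tied at the highest score.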

How the data were processed

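The authors deposited 1 combined list and 1 list for each ChIP replicate. Per the file headers they are on WormBase WS220, and the method field names SPP followed by IDR. No source used here gives the aligner, versions, thresholds or depths, or says how the lists were combined. The score is the value the authors deposited for each region. Per the labels' protocols, fixation was with formaldehyde and the antibody was against GFP.

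The 26 and 29 mitochondrial regions of the replicates were left out. Regions counted as shared where the overlap reached 50% of the shorter region, and a combined region took the best-numbered replicate region it met. Windows of 25 kb began at position 1 and counted midpoints. Intervals are 95% Clopper-Pearson, cover counting error only, and take regions as independent. No hypothesis test was run. Every combined region of II is named. The members and lists were chosen with earlier results of these data known, and the first segment was singled out after its values were seen. Overlap and window counting were tested on simulated data. Python 3.11.15, numpy 2.4.6, pandas 2.3.3, scipy 1.17.1 and matplotlib 3.10.9 were used.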

Additional observations from a re-analysis of the deposited data

How the results depend on the processing

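Of 46 alternatives for 8 results, 28 stayed within the interval of the value given, or within 1.5 times the count, and 18 did not. The tally is no measure of stability. Counts at other list sizes were bound to differ, and the first-segment share was held against a wide interval, 1.12 to 29.2. The first-segment share of the combined regions, whose 7 alternatives were chosen after seeing the data, ranged from 9.09% to 14.3%, and from 9.09% to 13.3% with either replicate's top set in place of the combined list. The middle-segment share ranged from 27.3% without replicate 1 to 60.0% without replicate 2, and the central 50% of the span held 68.2%. Combined regions found in both replicates fell to 50.0% with midpoints within 100 bp and to 36.4% when the replicate regions had to be at the highest score. When any 1 bp of overlap counted, 20.5% of replicate 1 and 34.4% of replicate 2 regions were shared. With midpoints within 100 bp these were 6.31% and 10.9%, and in the better 50% of each list 9.0% and 14.8%. Sites shared by the 1000 best numbered 12 with midpoints within 100 bp. Other list sizes gave 2 for the top sets, and 9, 31, 72 and 167 for the 500, 2000, 5000 and 10000 best. Dense windows numbered 9 with windows of 10 kb, and from 3 without replicate 1 to 9 without replicate 2. Combined regions in or near them numbered 5 with windows of 10 kb, and from 3 to 4 with either replicate left out. With all windows moved by 50% of their width, 2 combined regions in place of 3 were in or near a dense one, and the window from 10537501 to 10562500 held 24 and 18 regions. The causes were not tested. Sharing between the replicates has no value without either of them. No paired analysis was possible because the 3 lists used here hold regions of the ChIP samples and no values of the inputs with the same replicate numbers, and the results come from no test. Unknown depth and the ties at the highest score limit every ranking above.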
